A study of Homo sapiens with 9 samples.

Results

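The lysosome and autophagy genes described here are 40 genes out of the 60603 in the deposited table, chosen by name and matched by the gene symbol in the table. They cover 8 roles: lysosomal membrane proteins, cysteine cathepsins, other lysosomal proteases, sugar and lipid hydrolases, soluble cofactors, the MiT/TFE transcription factors, autophagy initiation and lipidation, and the proteins that sit on the autophagosome. Of the 40, 39 had enough counts to be tested among 16093 genes, and CTSZ, with 0 to 3 counts in each library, did not.

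The cells were TC32, an established Ewing sarcoma line driven by the EWS::FLI1 fusion, in which the study silenced that fusion to define its induced and repressed targets. Polyadenylated RNA was sequenced at 30 h from 3 groups of 3 biological replicates, all labelled as wild type, grown in 10% serum with glutamine and marked as the same batch. Cells of the siEF group received an siRNA that spans the fusion breakpoint and those of the siNEG group an siRNA with no specific target. The media group is labelled by medium alone, although its protocol entry names the siRNA plating step as for the other groups. A single cell line was used, so the spread between replicates is that of separate samples of 1 line.

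Lysosomes are acidic compartments in which hydrolases break down proteins, sugars and lipids, and autophagy brings cytoplasm to them inside a membrane, the autophagosome. TFEB, TFE3 and MITF are related transcription factors that bind a short DNA element shared by many lysosomal genes and are held in the cytoplasm by mTORC1 when nutrients are plentiful.

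Libraries held between 20727706 and 33134581 expected counts. The 10 most abundant genes took 12.3% to 12.9% of the counts in siEF and 5.78% to 6.62% in the other libraries, and levels are therefore given as CPM, the counts of a gene relative to all counts of its library, after TMM scaling. FLI1, which the siRNA targets as part of the fusion, was at 38.4, 35.5 and 39.4 CPM in siEF replicates 1, 2 and 3, 48.6, 48.5 and 48 in siNEG and 59.5, 56.2 and 57.9 in media, lowest in siEF (Log2FC -0.35, SE 0.06, adjusted P = 2.88e-05 against siNEG). Of 8 Ewing sarcoma marker genes, 7 were lower in siEF than in either control, NR0B1 among them. CD99 was higher than in siNEG (Log2FC 0.23, adjusted P = 0.00123) and not called against media (-0.11, adjusted P = 0.0815), and 5 of the 8 were lower in siNEG than in media.

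Most of the 39 lysosome and autophagy members tested were at higher levels in siEF than in siNEG. These members were chosen with earlier results of these data known. Of 163 other genes of the pathway tested, 50.3% were higher in siEF than in siNEG. Against siNEG, 27 of the 39 members rose and 10 fell in edgeR's quasi-likelihood test, with the adjusted P under 0.01 after Benjamini-Hochberg correction over all 16093 genes. Of all genes tested, 65.4% were called in either direction, 33.6% as higher and 31.7% as lower, so that most genes were called in this comparison. Of the members 69.2% were higher and 25.6% lower. Beyond a 2-fold change, 14 members were higher and 3 lower, where 28.8% of all genes were called (17.1% higher and 11.7% lower). The median Log2FC was 0.66 over the members and 0.05 over all genes tested. In 37 of the 39 members the siEF and siNEG libraries did not overlap, compared with 76.9% of all genes. Bulk RNA does not tell more RNA per cell from a change in which cells were present.

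The summed level of the 40 genes was 4060, 4186 and 4123 CPM in siEF replicates 1, 2 and 3, 2511, 2536 and 2530 in siNEG and 2631, 2552 and 2460 in media. All siEF libraries lay above all control libraries. CTSB alone made up a large part of this difference: without it the sums were 2763 to 2801 CPM in siEF, 2216 to 2237 in siNEG and 2129 to 2254 in media. The siEF libraries remained above the others.

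**Figure D1:**
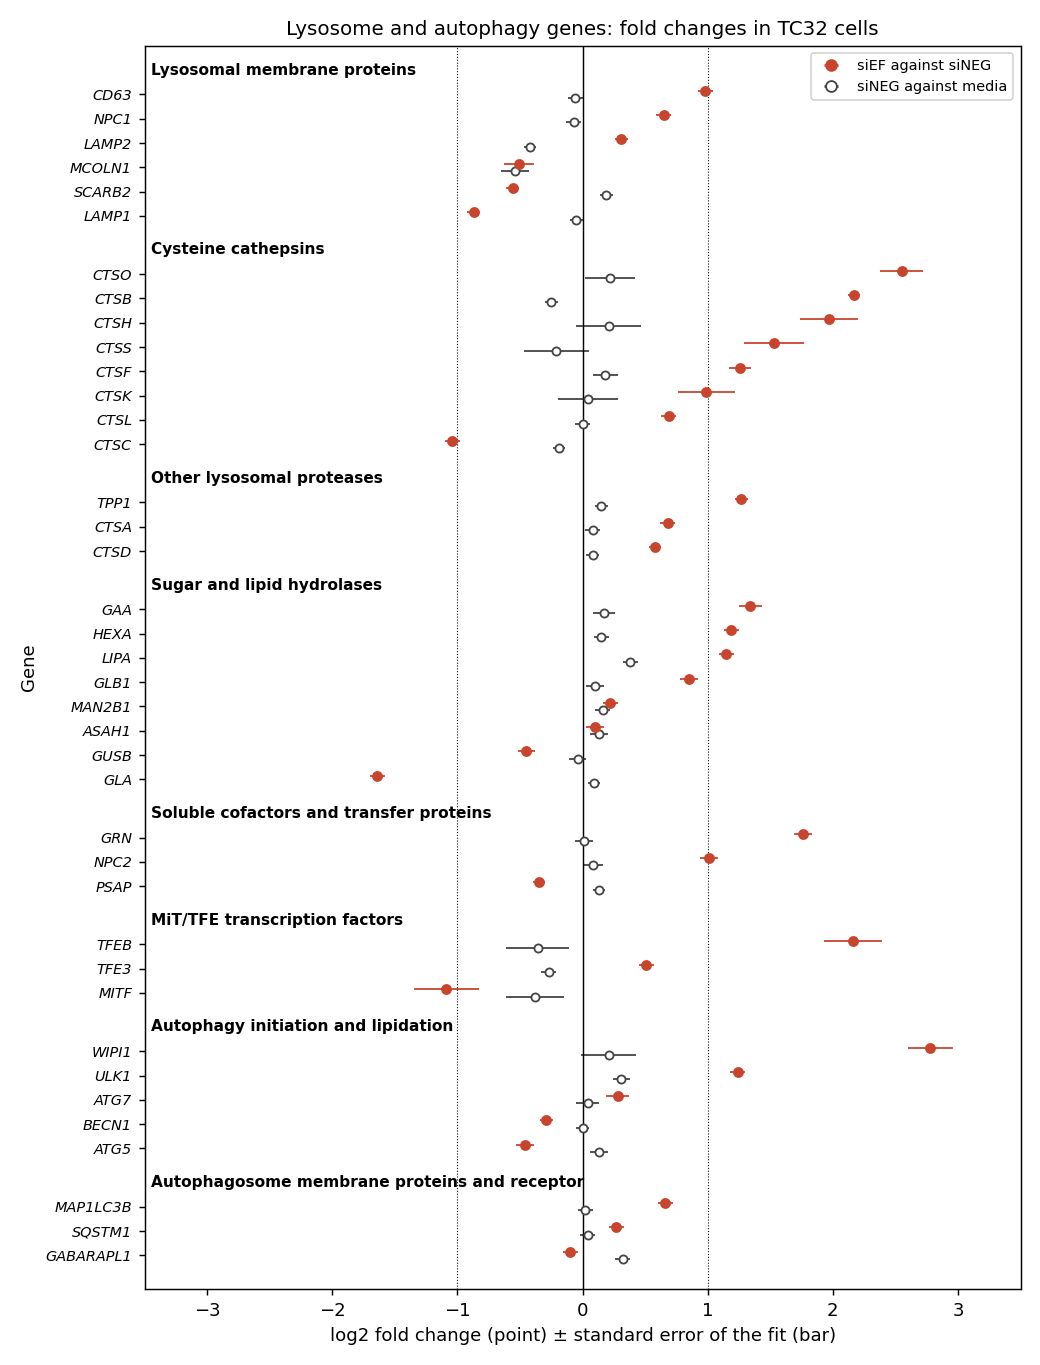
Log2 fold change (horizontal axis) of the 39 members tested, grouped by role, for siEF against siNEG (filled points) and siNEG against media (open points), with bars of 1 standard error and dotted lines at 2-fold. WIPI1 (2.78) and CTSO (2.55) lie farthest to the right and GLA (-1.64) farthest to the left, while the open points lie between -0.54 and 0.38.

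The 3 MiT/TFE factors did not move together. TFEB (ENSG00000112561.18, chr6:41683978-41736259, minus strand of GRCh38), the best known activator of lysosomal genes, was at 5.92, 8.03 and 8.16 CPM in siEF replicates 1, 2 and 3, 2.27, 1.15 and 1.51 in siNEG and 2.35, 1.71 and 2.27 in media. Its siEF libraries lay above all controls, with replicate 1 the lowest of them. TFEB rose 4.48-fold against siNEG (Log2FC 2.16, SE 0.23, adjusted P = 2.24e-07). TFE3, whose product shares the same targets, was at 72, 75 and 76.4 CPM in siEF replicates 1, 2 and 3, 52.6, 53.2 and 51.6 in siNEG and 69.3, 58.7 and 61.7 in media. TFE3 rose less (Log2FC 0.51, SE 0.06, adjusted P = 1.25e-06), and its siEF libraries were higher than every control. MITF, known as the melanocyte member of the family, went the other way, at 0.939, 0.637 and 1.1 CPM in siEF replicates 1, 2 and 3, 1.99, 1.74 and 2.08 in siNEG and 2.02, 2.6 and 2.93 in media. These are 26, 13 and 32 counts in siEF against 63, 59 and 65 in siNEG, without overlap (Log2FC -1.09, SE 0.26, adjusted P = 0.00128). Per kilobase of transcript TFE3 was the most abundant of the 3 in every group, at 22.6 CPM per kb in siEF and 15.9 in siNEG, with TFEB at 3.16 and 0.705 and MITF at 0.186 and 0.404.

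The element these factors bind, the CLEAR element, has CACGTG at its core, and MITF also binds the M-box TCATGTG. Windows from 250 bases before to 50 after the transcript start, from RefSeq on GRCh38.p14, were found for 32 of the 40 members and searched on both strands. LAMP2, CTSB, CTSK, CTSO, CTSS, HEXA, ASAH1 and PSAP had no window. A gene was counted if any of its windows matched, with 49 windows for the 32 members and 35116 for 27305 genes. GTCACGTG, which contains CACGTG, was found in 5 of the 32 (15.6%) and in 2.93% of 27305 genes with a window. CACGTG was found in 7 members (21.9%, against 8.77% of genes) and TCATGTG in 5 (15.6%, against 3.59%). The 5 genes with GTCACGTG, shown here because they carry the fullest match, are written on the gene's own strand with the matches in capitals.
LAMP1: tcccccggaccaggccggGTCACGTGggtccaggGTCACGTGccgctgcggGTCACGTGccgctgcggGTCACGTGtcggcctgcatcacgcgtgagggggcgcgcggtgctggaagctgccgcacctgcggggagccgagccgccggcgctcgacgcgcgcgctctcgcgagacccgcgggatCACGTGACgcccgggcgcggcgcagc
MCOLN1: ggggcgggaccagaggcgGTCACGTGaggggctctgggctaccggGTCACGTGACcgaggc
CTSA: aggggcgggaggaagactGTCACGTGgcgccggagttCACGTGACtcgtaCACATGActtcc
CTSD: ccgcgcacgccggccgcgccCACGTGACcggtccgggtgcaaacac
GAA: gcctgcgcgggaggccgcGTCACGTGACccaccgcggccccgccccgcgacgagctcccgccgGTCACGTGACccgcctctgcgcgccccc

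These stretches lie at chr13:113297027-113297236, plus strand for LAMP1, chr19:7522563-7522623, plus strand for MCOLN1, chr20:45891273-45891334, plus strand for CTSA, chr11:1763949-1763994, minus strand for CTSD and chr17:80101485-80101575, plus strand for GAA, all upstream of the start. The LAMP1 window held CACGTG 6 times, 5 of them before the start as printed, and no other of the 27305 genes held it more than 4 times. The genes with the element did not share a direction. CTSA, CTSD and GAA rose with siEF whereas LAMP1 and MCOLN1 fell, which is 3 of the 21 higher members with a window and 2 of the 9 lower ones.

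The M-box letters are shown for the member with a match and the largest rise, GRN, and for TPP1, with 2 matches in each.
GRN: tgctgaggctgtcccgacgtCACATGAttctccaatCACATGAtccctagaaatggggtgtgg
TPP1: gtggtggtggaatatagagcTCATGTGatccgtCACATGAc

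The GRN stretch lies at chr17:44345060-44345122, plus strand, 180 to 242 bases before the start, and the TPP1 stretch at chr11:6619423-6619463, minus strand, directly before the start. TCATGTG was held by 4 of the 21 higher members with a window (CD63, CTSA, TPP1 and GRN) and by 1 of the 9 lower ones (SCARB2). For the ETS factors, to which FLI1 belongs, CCGGAAGT was found in ATG7 alone (3.12% of members, 4.95% of genes) and the repeated GGAAGGAA in NPC1 and NPC2 (6.25% of members, 4.5% of genes). A match is only a run of letters, and binding was not measured in these files.

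The 6 lysosomal membrane proteins split evenly, 3 higher and 3 lower in siEF than in siNEG, where 33.6% of all genes were higher and 31.7% lower. CD63, a tetraspanin of late endosomes and secreted vesicles, was at 288, 286 and 292 CPM in siEF replicates 1, 2 and 3, 158, 136 and 146 in siNEG and 163, 146 and 149 in media, with all siEF libraries above all controls (Log2FC 0.98, SE 0.06, adjusted P = 9.27e-11). LAMP1, the most widely used lysosome marker and a main glycoprotein of its membrane, went down in the same cells. It was at 67.4, 78.1 and 72.5 CPM in siEF replicates 1, 2 and 3, 130.5, 134 and 134 in siNEG and 144.5, 136 and 133 in media, and its siEF libraries all lay under the lowest control (Log2FC -0.87, SE 0.05, adjusted P = 2.97e-10). LAMP2, the other main glycoprotein of that membrane, was at 199.7, 193 and 204 CPM in siEF replicates 1, 2 and 3, 169.6, 158 and 152 in siNEG and 198, 217 and 227 in media. Here the siEF libraries lay above siNEG (Log2FC 0.31, SE 0.05, adjusted P = 6.23e-05) but overlapped with media (Log2FC -0.11, SE 0.05, adjusted P = 0.0843). The siNEG libraries were the lowest of the 3 groups.

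NPC1, which moves cholesterol out of the lysosome, rose by 0.65 in Log2FC (adjusted P = 6.81e-08). SCARB2, the receptor that carries glucocerebrosidase to the lysosome, fell (Log2FC -0.56, SE 0.05, adjusted P = 1.94e-08), and its siEF libraries at 75.5 to 79.2 CPM lay under siNEG at 112 to 116 and media at 94.1 to 103. MCOLN1, the lysosomal calcium channel TRPML1, was at 5.17, 6.37 and 5.55 CPM in siEF replicates 1, 2 and 3, 7.14, 8.61 and 8.46 in siNEG and 11.9, 12.5 and 10.7 in media. The groups formed a series without overlap, highest in media and lowest in siEF, with Log2FC -0.51, SE 0.12, adjusted P = 0.000988 against siNEG and Log2FC -1.05, SE 0.12, adjusted P = 4e-07 against media. MCOLN1 shares exon sequence with PNPLA6 on the same strand, and its expected counts were not whole numbers in 3 libraries.

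Of the 8 cysteine cathepsins tested, the papain-like proteases of the lysosome, 7 rose with siEF and 1 fell. Of all genes tested, 33.6% were higher and 31.7% lower. CTSB (ENSG00000164733.21, chr8:11842524-11869533, minus strand), which cuts within proteins and also trims their ends, was the most abundant at 1298, 1385 and 1331 CPM in siEF replicates 1, 2 and 3, 295.5, 299 and 295 in siNEG and 377, 349 and 330.2 in media. No siEF library came near the controls, and the rise was 4.51-fold (Log2FC 2.17, SE 0.05, adjusted P = 1.71e-15). Per kilobase of transcript CTSB was at rank 3 of the 40 genes in both control groups, behind PSAP and CD63, at 79.4 CPM per kb in siNEG, and at rank 1 in siEF at 358.4. CTSO, a widely expressed cathepsin, showed the largest rise of the cathepsins from a low level. It was at 9.83, 9.35 and 11.7 CPM in siEF replicates 1, 2 and 3, 1.9, 2.09 and 1.28 in siNEG and 1.6, 1.43 and 1.5 in media, without overlap (Log2FC 2.55, SE 0.17, adjusted P = 9.72e-10).

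The other cathepsins that rose were mostly rare in the control libraries. CTSH, an aminopeptidase, was at 5.38, 5.19 and 5.79 CPM in siEF replicates 1, 2 and 3, 1.61, 1.5 and 1.06 in siNEG and 1.57, 1.27 and 0.768 in media (Log2FC 1.97, SE 0.23, adjusted P = 8.61e-07). CTSF, another papain-like enzyme, was at 20.3, 19.6 and 20.4 CPM in siEF replicates 1, 2 and 3, 9.19, 7.87 and 8.11 in siNEG and 8.23, 6.92 and 7.02 in media (Log2FC 1.26, SE 0.09, adjusted P = 2.19e-09). In both, all siEF libraries lay above all controls. CTSS, known for its work in antigen-presenting cells, was at 3.69, 4.16 and 4.46 CPM in siEF replicates 1, 2 and 3, 1.67, 0.855 and 1.73 in siNEG and 1.86, 1.4 and 1.64 in media (Log2FC 1.53, SE 0.24, adjusted P = 2.8e-05). CTSK, the collagen-cutting enzyme of osteoclasts, was at 3.07, 3.82 and 2.54 CPM in siEF replicates 1, 2 and 3, 1.26, 1.83 and 1.6 in siNEG and 1.44, 1.4 and 1.75 in media, with Log2FC 0.99, SE 0.23, adjusted P = 0.000979 against siNEG and Log2FC 1.03, SE 0.23, adjusted P = 0.000747 against media. For CTSK too the siEF libraries did not overlap with the controls, although the lowest of them, replicate 3, was close to the highest siNEG library. CTSL, the abundant endopeptidase that works beside CTSB, rose from 41.3 to 42 CPM in siNEG to a range of 64.2 to 69 CPM in siEF (Log2FC 0.69, SE 0.06, adjusted P = 1.24e-08).

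CTSC was the exception among the cathepsins. This dipeptidyl peptidase, which activates the serine proteases of immune granules, was at 34.1, 34.4 and 34.8 CPM in siEF replicates 1, 2 and 3, 68, 69.3 and 75.7 in siNEG and 80.1, 84 and 78.9 in media. The 3 siEF libraries nearly coincided and lay far under the controls (Log2FC -1.04, SE 0.06, adjusted P = 5.54e-11). CTSZ, a carboxypeptidase, had at most 3 counts in any library, so no difference was detectable at this depth.

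The 3 proteases of other classes all rose, beside 33.6% of all genes tested. TPP1, which removes tripeptides from the ends of proteins, was at 166, 163 and 173 CPM in siEF replicates 1, 2 and 3, 68, 71 and 69.6 in siNEG and 63.7, 62.7 and 61 in media, with the siEF libraries far above the controls (Log2FC 1.27, SE 0.05, adjusted P = 2.82e-13). CTSA, a serine carboxypeptidase that also protects other lysosomal enzymes, rose from 59.6 to 63.8 CPM in siNEG to a range of 96.7 to 103.5 CPM in siEF (Log2FC 0.68, SE 0.06, adjusted P = 2.08e-08). CTSD, the main aspartic protease, rose from 128 to 136 CPM in siNEG to a range of 193 to 202.5 CPM in siEF (Log2FC 0.58, SE 0.05, adjusted P = 3.43e-08). CTSD and TPP1 had expected counts that were not whole in all 9 libraries, since RSEM divides reads that match more than 1 gene, and both share exon sequence with annotated genes on the same strand.

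**Figure D2:**
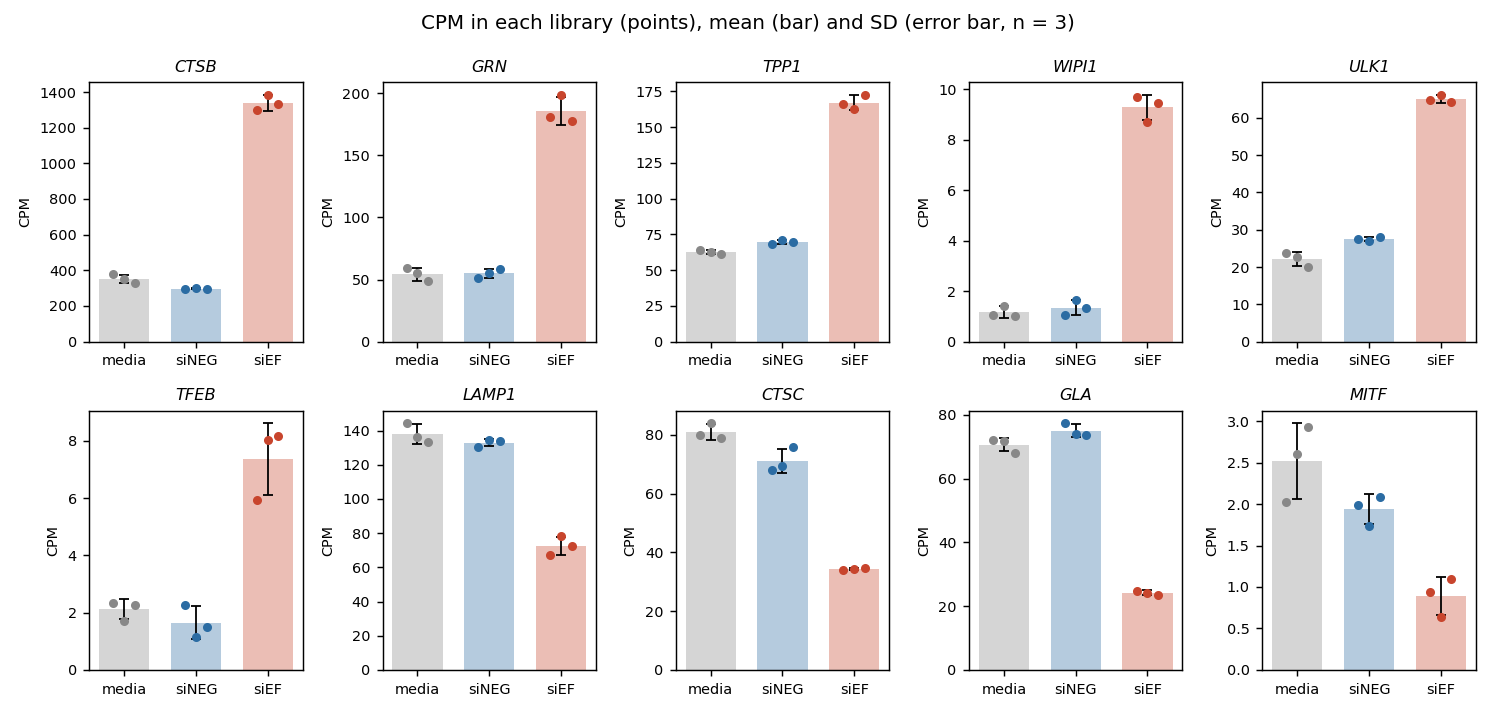
CPM (vertical axis, from 0) of 10 members in the 3 libraries of each group, with points for libraries, bars for means and error bars of 1 SD. CTSB, GRN, TPP1, WIPI1, ULK1 and TFEB were higher in every siEF library than in any control, and LAMP1, CTSC, GLA and MITF were lower in every siEF library than in any control.

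Among the 8 hydrolases of sugars and lipids, 5 rose, 2 fell and ASAH1 was not called (33.6% of all genes higher and 31.7% lower). GAA, the enzyme that degrades glycogen in the lysosome, was at 22.5, 25.4 and 24.2 CPM in siEF replicates 1, 2 and 3, 9.64, 9.46 and 9.33 in siNEG and 8.55, 9.14 and 7.47 in media (Log2FC 1.34, SE 0.09, adjusted P = 4.24e-10). HEXA, a subunit of the hexosaminidase that degrades gangliosides, was at 94.7, 97.3 and 91.5 CPM in siEF replicates 1, 2 and 3, 40.8, 42.4 and 41.4 in siNEG and 39.3, 38.9 and 34 in media (Log2FC 1.19, SE 0.06, adjusted P = 2.09e-11). LIPA, the acid lipase that frees cholesterol from its esters, was at 111, 109 and 114 CPM in siEF replicates 1, 2 and 3, 50.5, 51.4 and 48.8 in siNEG and 36.6, 36.9 and 42.4 in media (Log2FC 1.15, SE 0.06, adjusted P = 2.35e-11). In all 3 genes the siEF libraries were separate from both controls by a wide margin. GLB1, the beta-galactosidase used to stain senescent cells, rose by 0.85 in Log2FC from 38.6 to 45.4 CPM in siNEG to a range of 71.9 to 77 CPM in siEF (adjusted P = 7.59e-09).

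GLA showed the largest fall of all 39 members tested. GLA (ENSG00000102393.10, chrX:101393273-101408012, minus strand) encodes alpha-galactosidase A, which removes galactose from globotriaosylceramide. It was at 24.9, 24.2 and 23.3 CPM in siEF replicates 1, 2 and 3, 77.5, 74.1 and 73.7 in siNEG and 72.2, 71.7 and 68.2 in media, and every siEF library lay far under the lowest control (Log2FC -1.64, SE 0.06, adjusted P = 1.5e-13), a 3.11-fold drop against siNEG. By CPM per kb it moved from rank 5 of the 40 genes in both controls to rank 21 in siEF. GLA shares exon sequence with RPL36A on the opposite strand, and the strand setting of the counting is not given in the sources used here. The expected counts of GLA were whole in every library. GUSB, the beta-glucuronidase, also fell, from 43.2 to 46.4 CPM in siNEG to a range of 32.4 to 34.1 CPM in siEF (Log2FC -0.45, SE 0.07, adjusted P = 1.42e-05).

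For MAN2B1 and ASAH1 the differences were small. MAN2B1, an alpha-mannosidase, was at 39 to 44.3 CPM in siEF and 34.8 to 36.8 in siNEG (Log2FC 0.22, SE 0.06, adjusted P = 0.00383). This call was lost with DESeq2 (adjusted P = 0.0101), without the filter on low counts (adjusted P = 0.0259) and without siEF replicate 1 or 2 or siNEG replicate 1 or 3 (adjusted P from 0.0174 to 0.026). The expected counts of MAN2B1 were not whole in any of the 9 libraries. MAN2B1 shares exon sequence with ENSG00000269242 on the same strand, which had a mean of 26.9 CPM in siEF and 22 in siNEG. ASAH1, the acid ceramidase, was at 23.1 to 25.8 CPM in siEF and 22.1 to 23.7 in siNEG, which overlap (Log2FC 0.10, SE 0.07, adjusted P = 0.175).

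Of the soluble cofactors, GRN and NPC2 rose and PSAP fell (33.6% of all genes higher and 31.7% lower). GRN encodes progranulin, a secreted protein that is cut into granulins in the lysosome. It was at 181, 199 and 178 CPM in siEF replicates 1, 2 and 3, 50.9, 55.6 and 58.1 in siNEG and 59.4, 54.9 and 48.9 in media, far above the controls in every siEF library (Log2FC 1.76, SE 0.07, adjusted P = 9.77e-13), and was at rank 11 in siNEG and rank 5 in siEF of the 40 genes by CPM per kb. NPC2, the soluble partner that hands cholesterol to NPC1, was at 24.7, 24.2 and 24.5 CPM in siEF replicates 1, 2 and 3, 12.8, 11.7 and 12 in siNEG and 12.4, 10.9 and 11.3 in media (Log2FC 1.01, SE 0.07, adjusted P = 2.66e-09), so that its level sat at the 2-fold line. PSAP encodes prosaposin, the precursor of the saposins that help hydrolases act on lipids, and physically associates with progranulin. It was at 363, 372.5 and 363 CPM in siEF replicates 1, 2 and 3, 446, 475 and 479 in siNEG and 444, 439.6 and 397 in media, lowest in siEF without overlap (Log2FC -0.35, SE 0.05, adjusted P = 6.35e-06).

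Autophagy starts with the ULK1 kinase, then the lipid kinase complex of BECN1 and the lipid-binding WIPI proteins, and ATG7 and ATG5 help attach LC3 and its relatives to the membrane. WIPI1 (ENSG00000070540.13, chr17:68420948-68457513, minus strand) showed the largest rise of all 39 members, 6.87-fold against siNEG. It was at 9.68, 8.72 and 9.46 CPM in siEF replicates 1, 2 and 3, 1.07, 1.65 and 1.31 in siNEG and 1.04, 1.43 and 1.01 in media, which is 268, 178 and 276 counts in siEF and 34, 56 and 41 in siNEG (Log2FC 2.78, SE 0.18, adjusted P = 6.2e-10). The 2 sets of libraries lay far apart. WIPI1 shares exon sequence with ARSG, a lysosomal sulfatase gene on the opposite strand.

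ULK1 was at 64.7, 66.2 and 64.2 CPM in siEF replicates 1, 2 and 3, 27.5, 27 and 28 in siNEG and 23.6, 22.8 and 20.1 in media, with all siEF libraries above all controls (Log2FC 1.24, SE 0.06, adjusted P = 1.95e-11). BECN1 and ATG5 fell. BECN1 was at 46.9 to 48.8 CPM in siEF and 57.4 to 60.5 in siNEG (Log2FC -0.29, SE 0.05, adjusted P = 7.41e-05). ATG5 was at 39.2, 34.6 and 37.8 CPM in siEF replicates 1, 2 and 3, 53.9, 48.7 and 51.1 in siNEG and 43.9, 46.9 and 49.8 in media, without overlap (Log2FC -0.46, SE 0.07, adjusted P = 1.08e-05). ATG7 was at 15.1 to 17.8 CPM in siEF and 13.2 to 14.4 in siNEG (Log2FC 0.28, SE 0.09, adjusted P = 0.00972). The ATG7 call was lost with DESeq2 (adjusted P = 0.0371), with RLE factors (0.0119), without the filter on low counts (0.032) and without siEF replicate 1 or 3, media replicate 2 or 3 or any of the siNEG replicates (adjusted P from 0.0102 to 0.0655).

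On the autophagosome itself the changes were under 2-fold. MAP1LC3B, the LC3 protein used to count autophagosomes, was at 65.8, 62.2 and 63.4 CPM in siEF replicates 1, 2 and 3, 38.4, 43.1 and 39.9 in siNEG and 42.6, 40.3 and 36.9 in media (Log2FC 0.66, SE 0.06, adjusted P = 9.23e-08). Its siEF libraries lay above all controls, and its expected counts were not whole in any of the 9 libraries. SQSTM1, the receptor p62 that ties ubiquitinated cargo to LC3, rose from 69.8 to 77 CPM in siNEG to a range of 87.5 to 88.7 CPM in siEF (Log2FC 0.27, SE 0.06, adjusted P = 0.000387). GABARAPL1, a relative of LC3, was at 57.7, 53.1 and 56.5 CPM in siEF replicates 1, 2 and 3, 57.6, 62.2 and 60.1 in siNEG and 46.8, 49.7 and 47.7 in media, where siEF and siNEG overlapped (Log2FC -0.10, SE 0.06, adjusted P = 0.104).

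Not every call beyond 2-fold clears that line with its error. A test against a 2-fold change itself (edgeR's glmTreat) called 12 of the 17, without CTSS, LIPA and NPC2 among the higher members and without CTSC and MITF among the lower ones, so that GLA was the remaining lower member. Leaving out siEF replicate 2 took MITF from the lower set. NPC2 left the higher set with DESeq2, with RLE factors, without the filter on low counts and without siEF replicate 1, siNEG replicate 2 or 3 or any media replicate, and CTSC left the lower set with upper quartile scaling. CTSK joined the higher set with upper quartile scaling, with at least 10 counts in every library and without siEF replicate 1 or 3 or siNEG replicate 2, and CD63 joined it with upper quartile scaling.

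The 2 control groups, siNEG and media, were also compared. This comparison does not part the nonspecific siRNA from the step that delivers it. The protocol entry of the media group also names the siRNA plating step. Of the 39 members, 4 were higher and 4 lower in siNEG than in media, where 9.79% of all genes were called (3.83% higher and 5.96% lower), and none changed beyond 2-fold (0.429% of all genes, 0.162% higher and 0.267% lower), either here or with DESeq2. With edgeR's quasi-likelihood test 13 of the 39 members (33.3%) had an unadjusted P under 0.05, close to the 30.3% of all genes. The median Log2FC was 0.08, and the 2 groups did not overlap in 16 members, against 32.7% of all genes.

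**Figure D3:**
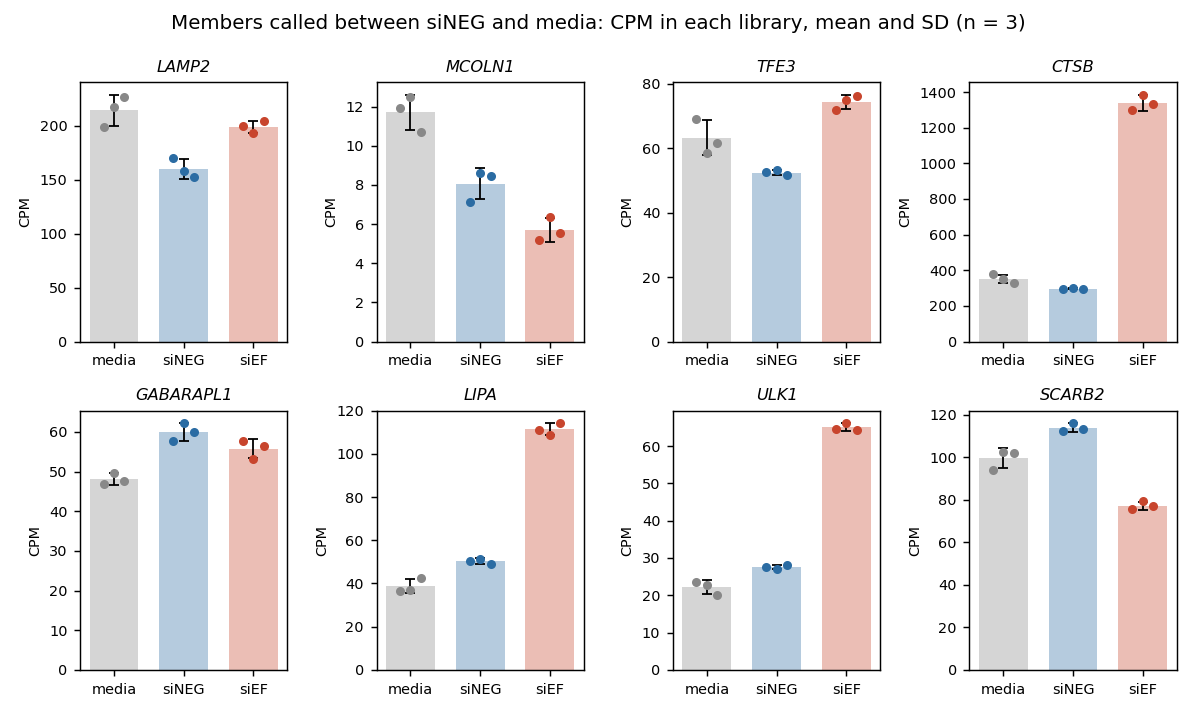
CPM (vertical axis, from 0) of the 8 members called between siNEG and media, in each library, with bars for means and error bars of 1 SD (n = 3). LAMP2, MCOLN1, TFE3 and CTSB were lower in siNEG than in media and GABARAPL1, LIPA, ULK1 and SCARB2 higher.

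LAMP2 fell in siNEG against media (Log2FC -0.42, SE 0.05, adjusted P = 4.39e-05), and MCOLN1 (-0.54, adjusted P = 0.00252), TFE3 (-0.27, adjusted P = 0.00559) and CTSB (-0.25, adjusted P = 0.00219) were lower too. LIPA (Log2FC 0.38, SE 0.06, adjusted P = 0.000357), GABARAPL1 (0.32, adjusted P = 0.000737), ULK1 (0.31, adjusted P = 0.00349) and SCARB2 (0.19, adjusted P = 0.00962) were higher. LAMP2, LIPA and GABARAPL1 were called whichever library was left out. SCARB2 lost its call whichever of the 9 was left out, CTSB without any of the siNEG replicates, and TFE3 without media replicate 1 or any siNEG replicate. MCOLN1 lost it without media replicate 1 or 2 or siNEG replicate 1, and ULK1 without media replicate 3 or siNEG replicate 2 or 3. The adjusted P values of these fits lay between 0.0102 and 0.0557.

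Against media, 28 members were higher and 10 lower in siEF, 15 and 4 of them beyond 2-fold. The background in this comparison was 65.9% of all genes (33.6% higher and 32.3% lower) and 29.9% beyond 2-fold (17.4% and 12.5%). The members' median Log2FC was 0.67, and 38 of 39 did not overlap (75.8% of all genes). The comparisons with siNEG and with media share the siEF libraries. Side by side, 26 members were higher and 10 lower against each control. LAMP2 was called against siNEG and not against media, and its difference between the controls passed the test. Without media replicate 1 it was called lower in siEF than in media (adjusted P = 0.00632). ASAH1 (Log2FC 0.24, SE 0.07, adjusted P = 0.005) and GABARAPL1 (Log2FC 0.22, SE 0.06, adjusted P = 0.00249) were called against media and not against siNEG, and for ASAH1 the controls were not shown to differ (adjusted P = 0.197). Several of the smaller calls against media rest on single libraries. ASAH1 lost its call without media replicate 1 or 2, siEF replicate 1 or 3 or siNEG replicate 2, and GABARAPL1 without media replicate 1 or siEF replicate 1 or 3. ATG7 lost it without media replicate 2 or siEF replicate 1 or 3, and TFE3 without media replicate 2 or 3 or siEF replicate 3, with adjusted P values of these fits between 0.0101 and 0.0346. CTSK, at the 2-fold line, and MCOLN1 passed that line against media.

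The wider pathway was followed in 10 lists that hold 171 other genes, 163 of them tested, with 82 higher and 42 lower in siEF than in siNEG and a median Log2FC of 0.23. Other hydrolases and cofactors had 13 higher and 7 lower of 27, from IDUA, which degrades heparan and dermatan sulfate (Log2FC 3.16, SE 0.43, adjusted P = 4.76e-06, 51, 39 and 48 against 4, 6 and 9 counts), to SMPD1, the acid sphingomyelinase (Log2FC -1.08, SE 0.08, adjusted P = 1.74e-09). Other membrane proteins and transporters had 11 higher and 3 lower of 22, with SIDT2 at 88.5, 87.9 and 85.1 CPM in siEF and 17.6, 17.1 and 19.9 in siNEG (Log2FC 2.26, SE 0.07, adjusted P = 1.91e-14) and LAMP3 the largest fall (Log2FC -1.49, SE 0.17, adjusted P = 4.44e-07). The V-ATPase, the proton pump that acidifies the lysosome, had 6 subunits higher (31.6%) and 8 lower (42.1%) of 19 and a median of -0.12, against 33.6% and 31.7% of all genes, from ATP6V1H (0.54, adjusted P = 1.38e-06) to ATP6V0A2 (-1.48, adjusted P = 1.01e-11).

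Delivery of enzymes by mannose 6-phosphate receptors and sortilins had 5 higher and 1 lower of 10, with the sorting receptors SORL1 (1.40, adjusted P = 1.01e-07) and SORT1 (-0.25, adjusted P = 0.00464) at the ends. Of 4 cathepsin inhibitors tested all rose, SPOCK1 the most (2.76, adjusted P = 1.04e-08). For mTORC1 and its lysosomal regulators 11 were higher (47.8%) and 7 lower (30.4%) of 23. Beside each of these lists, 33.6% of all genes tested were called higher and 31.7% lower. MTOR, the kinase itself, was at 72, 78.7 and 75.8 CPM in siEF and 145, 161.5 and 168 in siNEG (Log2FC -1.07, SE 0.06, adjusted P = 4.2e-11), and CASTOR1, the arginine sensor that restrains it, had 38, 47 and 67 counts against 2, 5 and 11 (Log2FC 3.38, SE 0.61, adjusted P = 0.0001). CASTOR1 shares exon sequence with another gene on the same strand, and its expected counts were not whole in 3 libraries. Other regulators had 5 higher and 2 lower of 7, with FOXO1, which activates autophagy genes, at 1.96 (adjusted P = 4.57e-13) and MYC, known to compete with the MiT/TFE factors at shared sites, at -1.25 (adjusted P = 5.21e-12).

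The rest of the autophagy machinery had 10 higher (37%) and 12 lower (44.4%) of 27, from MAP1LC3A, another LC3 protein (Log2FC 1.80, SE 0.11, adjusted P = 2.64e-10), to ATG3, the enzyme that joins LC3 to lipid (Log2FC -1.44, SE 0.07, adjusted P = 1.24e-11). Autophagy receptors other than SQSTM1 had 6 higher and 2 lower of 10. OPTN, the receptor optineurin that acts on damaged mitochondria and bacteria, was at 127, 122.5 and 135 CPM in siEF and 12.1, 11.1 and 11.1 in siNEG, an 11.2-fold rise (Log2FC 3.49, SE 0.07, adjusted P = 2.54e-16) that exceeded that of any of the 39 members, while FUNDC1, a mitochondrial receptor, fell (-0.51, adjusted P = 5.3e-06). Of 14 genes for the fusion of autophagosomes with lysosomes, 11 were higher and none lower, and DESeq2 gave the same counts. An unadjusted P under 0.05 was found for 13 of them (92.9%, against 75.5% of all genes). RILP, an effector of the late endosomal GTPase RAB7A, moved most (Log2FC 3.15, SE 0.36, adjusted P = 5.56e-07). It rose from a low level, with 100, 67 and 114 counts in siEF against 4, 19 and 16 in siNEG. Among all genes tested 33.6% were called higher and 31.7% lower.

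**Figure D4:**
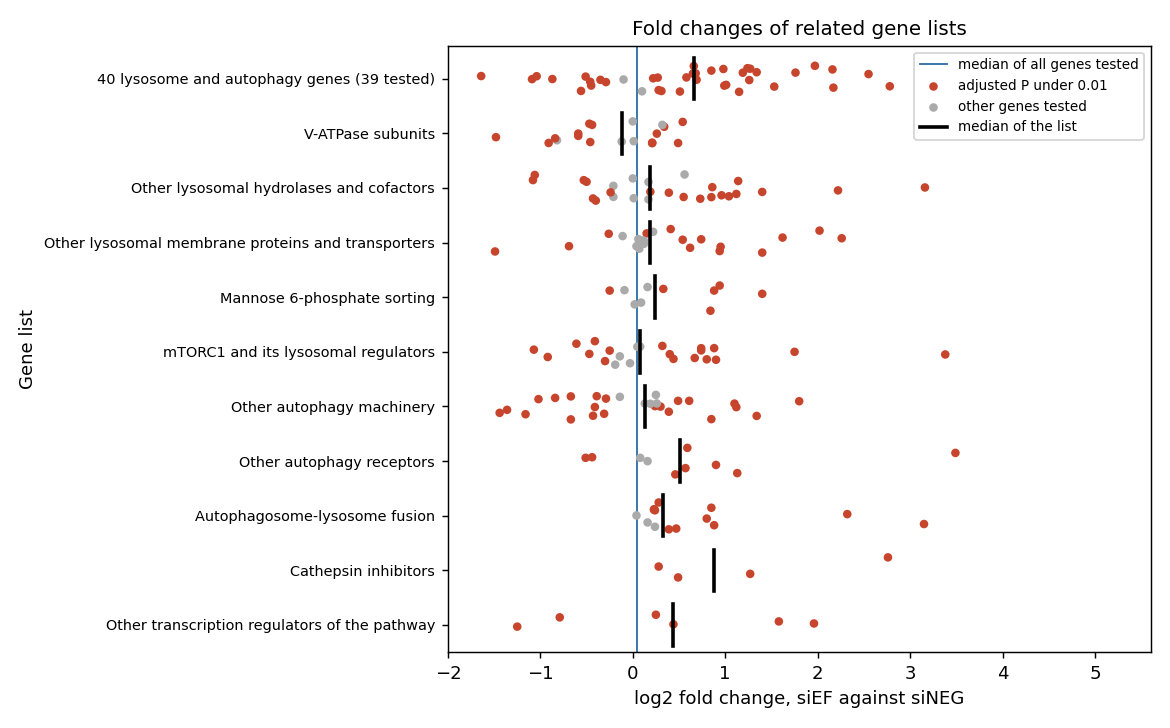
Log2 fold change of siEF against siNEG (horizontal axis) for each gene tested in the 39 members and in 10 related lists, with red points at an adjusted P under 0.01, black lines at list medians and a blue line at the median of all genes tested. The members' median is 0.66 and that of the V-ATPase subunits is -0.12, and PPARGC1A, with 33, 13 and 22 counts in siEF and 0 in every siNEG library, is not drawn.

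Markers of other cell types were examined because several members are abundant in macrophages and osteoclasts. Of 9 macrophage markers, 2 were tested and TYROBP was at 0 in every library, and their summed level was 1.75 to 2.06 CPM in siEF, 0.801 to 1.27 in siNEG and 0.978 to 1.27 in media. Of the 2 tested, 1 was higher beyond 2-fold in siEF than in siNEG, and 1 was higher beyond 2-fold than in media. Of 7 fibroblast and osteoclast markers, DCSTAMP and OCSTAMP were at 0 throughout, and the sum was 112 to 119 CPM in siEF against 2.09 to 2.68 in siNEG and 1.86 to 2.17 in media, most of it PDGFRA, a growth factor receptor of mesenchymal cells. All 4 markers of that list that were tested were higher in siEF than in siNEG and media, the others being DCN (60, 44 and 70 counts in siEF against 6, 13 and 16 in siNEG), LUM (35, 20 and 43 against 0, 0 and 1) and ACP5 (13, 14 and 18 against 0, 0 and 0). The 5 epithelial and endothelial markers summed to 3.29 to 3.92 CPM in siEF, 3.43 to 4.8 in siNEG and 4.57 to 5.59 in media. That sum holds genes that moved both ways against siNEG: EPCAM (13, 9 and 9 counts against 1, 3 and 0) and CDH1 (28, 16 and 27 against 0, 0 and 0) were higher and PECAM1 (30, 40 and 51 against 135, 117 and 105) was lower. The part of PDGFRA, its list and these genes in the members' changes was not tested.

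By annotation, 21 of the 40 members share exon sequence with another gene and 10 had expected counts that were not whole in at least 1 library. The strand setting is not stated, so it is not known whether reads of opposite-strand pairs were kept apart by strand. Examples are LIPA with IFIT2 and IFIT3, BECN1 with PSME3 and ATG7 with VGLL4. The expected counts of LIPA, BECN1 and ATG7 were whole in every library, and whether any reads were shared was not tested. CTSB, CTSO, CTSH, GRN, GAA, ULK1, CTSC and LAMP1 are among the 19 members without an exon overlap.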

How the data were processed

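Bulk RNA-seq of TC32 cells at 30 h was taken from 9 libraries in 3 groups of 3, grouped by their labels. The authors mapped reads to hg38 with STAR and estimated expression with RSEM, and they deposited the expected counts of each library, without any scaling for depth. The annotation release and the strand setting are not given in the sources used here. The submitters' processing notes also name FastQC, cutadapt 2.10 and DESeq2 1.32.0. The extraction label names a small RNA library kit, while the molecule is labelled as polyadenylated RNA.

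Expected counts were rounded, filtered with filterByExpr, scaled by TMM and tested with edgeR 4.0.16 (quasi-likelihood test, R 4.3.3) in a single fit of all 9 libraries, with Benjamini-Hochberg adjustment over 16093 genes. A change needed an adjusted P under 0.01, and a change beyond 2-fold also a log2 fold change beyond 1. The SE is the absolute log2 fold change over the root of its F statistic. On simulated data 200 of 200 changed genes were called, with 2 false calls among 15730 genes tested. The changes put in were all beyond 2-fold, equal in number up and down, and in genes with ample counts. Most genes were left unchanged there, unlike in siEF against siNEG. Recovery of smaller changes, or of changes at low counts, was not tried. No 2 libraries of a group agreed within sampling noise. Levels per kilobase use the Ensembl canonical transcript, and positions and exon overlaps come from GENCODE on GRCh38.

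Values per library are given for every member beyond 2-fold in any comparison, for the MiT/TFE factors and for the largest rise and fall of each role, and related lists are represented by their largest rise and fall with a mean of at least 1 CPM in the higher group. LAMP2, PPARGC1A and the cell type markers named were added after their values were seen. The members and lists were chosen with earlier results of these data known. DESeq2 1.42.0, other scalings and filters, a replicate block and each library left out were the alternatives. Columns left unused numbered 0.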

Additional observations from a re-analysis of the deposited data

How the results depend on the processing

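No result reversed. For siEF against siNEG the members' median log2 fold change (0.66) was 0.63 with DESeq2, 0.74 with upper quartile factors, 0.61 without the filter and 0.68 with at least 10 counts in every library, and between 0.59 and 0.68 with a library left out. Against media (0.67) it was 0.77 with upper quartile factors and 0.61 to 0.71 with a library left out, and for siNEG against media (0.08) it was 0.09 and 0.03 to 0.10. Upper quartile scaling also moved the median of all genes, from 0.046 to 0.132. Tested against the 2-fold line, members lower numbered 1 against siNEG and 2 against media.

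With a library left out, members higher and lower numbered 25 to 27 and 10 to 10 (siEF against siNEG), 24 to 28 and 10 to 11 (siEF against media) and 2 to 3 and 1 to 4 (siNEG against media). Beyond 2-fold they numbered 13 to 15 and 2 to 3 against siNEG, 14 to 15 and 3 to 4 against media and 0 to 0 between the controls. FLI1 ranged from -0.39 to -0.32. With the replicate number as a block, 26 members were higher and 10 lower against siNEG, and the median was 0.66. Under the block ATG7 was not called against siNEG (adjusted P = 0.0131) and CTSK passed the 2-fold line. The numbers did not pair the samples: same-numbered deviations correlated between -0.0875 and 0.0482. For single genes and lists in siEF against siNEG and siNEG against media, 836 values kept their side of the threshold, 42 lost their call and 1 count moved. For members in siEF against media, 20 calls were lost over these alternatives, in ASAH1, ATG7, GABARAPL1, TFE3 and PSAP (the last with upper quartile factors, adjusted P = 0.0289), and 1 was gained, in LAMP2.

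CTSZ was at 0 to 3 counts and shares exon sequence with NELFCD on the opposite strand. What part depth or this overlap had in its low count was not tested. Against siNEG the SE was 0.26 for MITF, 0.24 for CTSS and 0.23 for TFEB, CTSK and CTSH, all at low levels. What set these errors was not tested. A left-out fit with 2 libraries in a group takes their spread from all groups.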
